A study of Arabidopsis thaliana with 27 samples.

Results

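Wild-type Arabidopsis seedlings kept for 24 h in 100 µM Cd were compared with wild-type seedlings kept without Cd. The comparison rested on 6 of the 27 arrays of the study, 3 labelled WT Cd 24 h and 3 labelled WT control, which were chosen by their labels alone, and all 37118 features of the array were measured in both groups. The plants were labelled as wild type of ecotype Col-0. They had grown on solid medium for 2 weeks, and the control seedlings were placed in the same kind of solution without Cd. How long the control seedlings stayed in that solution was not given, so time in solution and Cd cannot be told apart. The other arrays held the gox2 mutant and the overexpression line 35S::GOX2, which are altered in glycolate oxidase, an enzyme of photorespiration that releases hydrogen peroxide in peroxisomes. Each replicate was a pool of at least 5 plants according to the labels, and the 3 replicates of a group were described as independent. The labels named leaves as the tissue in one field and seedlings in others.

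Cadmium has no known use in Arabidopsis. It enters roots largely through transporters of iron, zinc and other divalent metals, among them IRT1. Inside the cell it binds thiols, and glutathione, built from reduced sulfate, is the substrate from which phytochelatins, the peptides that carry Cd into the vacuole, are made. A plant under Cd therefore draws on sulfur supply, while the uptake, storage and signalling of iron are often disturbed.

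GOX2 was set beside the labels of the arrays, but it could not check those of the 2 groups used here. Its log2 intensity was 13.69, 13.77 and 13.72 on the control arrays and 13.70, 13.63 and 13.66 on the Cd arrays, so both groups carried the transcript at one level. On other arrays GOX2 went against the labels. It was between 10.03 and 10.45 on those labelled WT Cd 30 min and between 9.60 and 9.79 on those labelled 35S::GOX2 control, below both WT groups, and between 14.02 and 14.21 on atgox control and 13.71 and 14.08 on gox2 Cd 24 h, which are mutant labels. A level near that of the WT groups was thus also seen under mutant labels, and whether labels were exchanged was not tested. The arrays labelled 35S::GOX2 control, as they share the slide, enter the main test below through its spread, and all of these arrays enter the fit to 27 arrays in the same way. Each of the 6 arrays was closest to an array of its own group, with correlations of 0.9969 to 0.9979 within the groups and 0.9909 to 0.9932 between them. The median log2 intensity of the 6 arrays as deposited lay between 10.13 and 10.17, and the median SD of a feature was 0.10 between the control arrays and 0.09 between the Cd arrays. All 6 lay on 1 slide, where the control arrays took positions 1 to 3 and the Cd arrays positions 4 to 6, so position and treatment cannot be told apart. The number of arrays limits the precision.

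Genes of roots were well measured despite the leaf label. CASP1, a membrane protein of the root endodermis, read 14.27, 14.38 and 14.28 on the control arrays. The 10 root markers averaged 12.23 to 12.38 on the control arrays and 11.99 to 12.12 on the Cd arrays, and 6 of them fell while RHD6, a regulator of root hair growth, rose (0.76). Among those that fell were CASP1, ESB1 and the root hair genes EXPA7, EXPA18, PRP3 and COBL9 (-0.30), and COBL9 lost its call in 4 of the 6 fits that left out 1 array (adjusted p up to 0.105). The root markers SCR (0.13), LRX1 (-0.03) and MYB36 (0.22) did not pass the threshold. In such whole-tissue RNA, fewer cells of a type and less RNA per cell cannot be told apart. The 8 markers of leaf epidermis and guard cells averaged 9.96 to 10.04 without Cd and 10.10 to 10.16 with it, with 1 member higher and 1 lower. Of 6 seed storage genes, CRU1, which encodes a cruciferin, rose (1.65), as did CRU3 (0.77), whose arrays overlapped between the groups and whose call was lost in 4 of the 6 fits that left out 1 array (adjusted p up to 0.118).

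After 24 h of Cd, 8433 of the 37118 features differed from the control by limma's test (22.7%, adjusted p under 0.05), of which 3808 were higher (10.3%) and 4625 lower (12.5%). Most changes were small: the median absolute log2 fold change was 0.14, the median change was -0.01, and 924 features (2.49%) passed the threshold with a log2 fold change of at least 1, of which 556 rose (1.5%) and 368 fell (0.991%). For 38.9% of all features the values of the control and of the Cd arrays did not overlap. The test used the 12 arrays of the slide that holds both groups. When all 27 arrays in 9 groups were fitted together, 1194 features passed (3.22%), 556 higher (1.5%) and 638 lower (1.72%), and all 1194 had also passed in the fit to the slide. The figures given below for a gene list count 1 feature for each of 32627 loci, of which 10.5% were higher and 12.6% lower, with a median change of -0.01. By locus, 23.1% passed in either direction, and 3.34% in the fit to all 27 arrays. Of the 3602 loci with several features, 4 had features past the threshold in opposite directions.

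**Figure D1:**
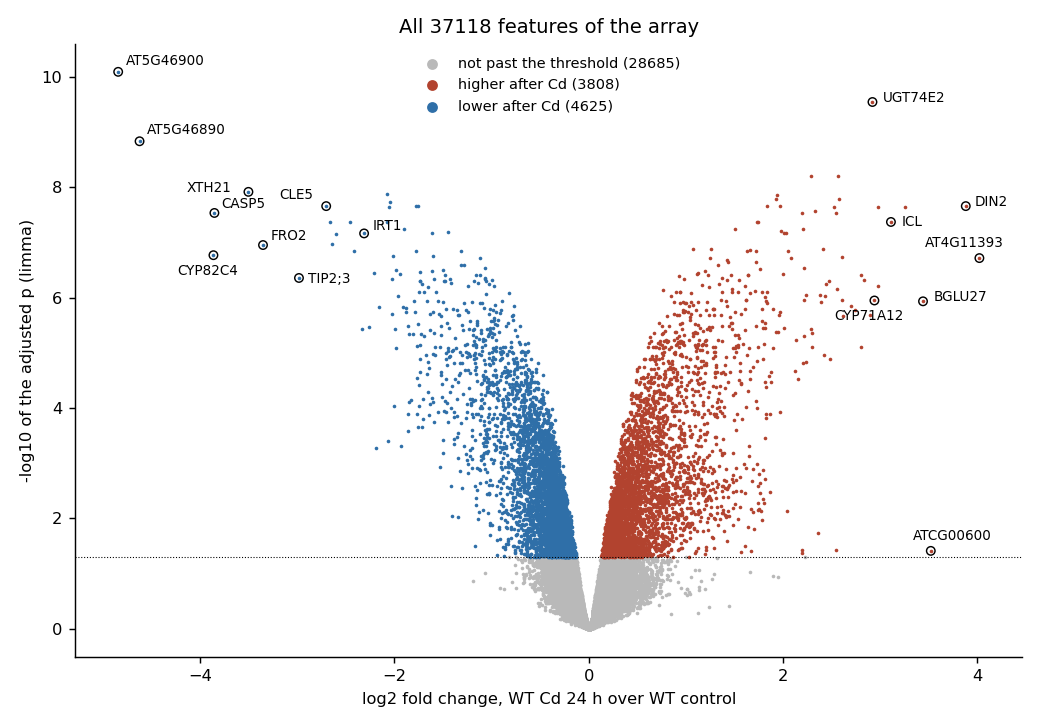
Log2 fold change of WT Cd 24 h over WT control (x axis) against -log10 of the adjusted p (y axis) for each of the 37118 features, with the threshold of 0.05 as a dotted line and 16 of the genes named in the text circled. The 3808 features in red were higher after Cd and the 4625 in blue lower, and AT5G46900 lies farthest to the left at -4.84.

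The 15 largest rises ranged from 2.74 to 4.02 on the log2 scale. The largest belonged to AT4G11393, at 5.45, 6.0 and 6.38 without Cd and at 9.95 or more on each Cd array (log2 fold change 4.02, SE 0.18, adjusted p = 1.93e-07). DIN2, a dark-inducible beta-glucosidase, followed, at 8.46, 8.81 and 8.86 on the control arrays and 12.73, 12.49 and 12.56 on the Cd arrays (3.88, SE 0.12, adjusted p = 2.21e-08). The Cd arrays of both lay more than 3 log2 units above every control array, where separate groups were a condition of the choice. BGLU27, a beta-glucosidase gene 2 protein-coding genes away from DIN2, rose by 3.44, so related genes that lie close together stood side by side in the list. The neighbours AT3G54530 and AT3G54520 rose by 3.25 and 2.98. The others were ICL (3.11), CYP71A12 (2.94), UGT74E2 (2.92), CYP71A18 (2.83), the dirigent protein gene DIR5 (2.74), the chloroplast locus ATCG00600 (3.52), AT4G11170 (2.98), AT1G55230 (2.89), AT5G58840 (2.80) and AT5G39120 (2.80). ATCG00600 was the exception in precision: its control arrays read 12.90, 8.31 and 10.38, and its adjusted p of 0.0386 became 0.126 without WT control replicate 2, with a change of 2.41. It passed only when WT control replicate 1 or no array was left out.

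The 15 largest falls ranged from -4.84 to -2.31, and iron uptake, root barrier and water channel genes were among them. AT5G46900 read 10.83, 10.83 and 10.95 without Cd and 6.11, 6.08 and 5.90 with it, a 28.7-fold difference (log2 fold change -4.84, SE 0.07, adjusted p = 8.19e-11). Its neighbour AT5G46890 was lower by a similar amount (-4.62, SE 0.10, adjusted p = 1.48e-09). These adjacent genes may share probes, and the files do not show whether their signals are independent. XTH21, which encodes a xyloglucan endotransglucosylase of the cell wall, fell from 11.13, 11.06 and 11.03 to 7.48, 7.58 and 7.67 (-3.50, adjusted p = 1.22e-08). MRN1, the marneral synthase gene, fell by 2.66 and the sulfotransferase gene ST4B by 2.41. The remaining falls were those of CYP82C4, CASP5, FRO2, TIP2;3, CLE5 and IRT1, described below with their pathways, and of AT4G11210 (-2.64), CYP82F1 (-2.60), AT1G44970 (-2.45) and AT1G34520 (-2.33). In the fit to all 27 arrays, 8 of the 15 rises and 10 of the 15 falls also passed the threshold.

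**Figure D2:**
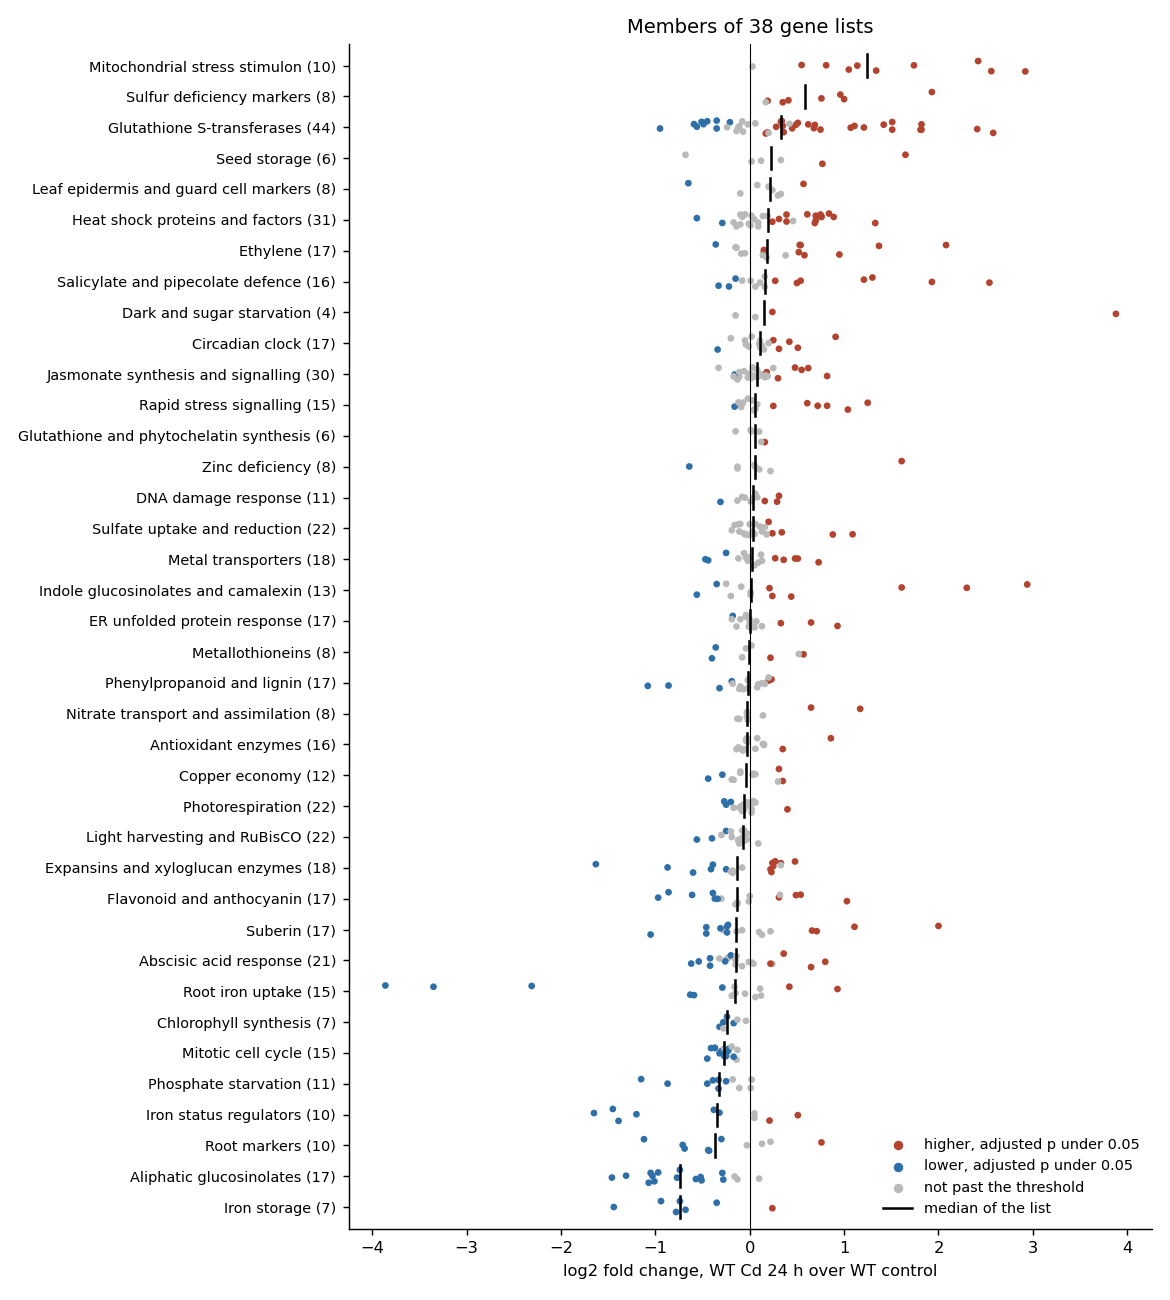
Log2 fold change of WT Cd 24 h over WT control (x axis) for the measured members of 38 gene lists (rows, with the number of members), each point 1 gene and each black bar the median of the list. Members of the mitochondrial stress stimulon lie farthest to the right by median (1.24), and those of iron storage and aliphatic glucosinolate synthesis farthest to the left (-0.74 each).

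Roots of Arabidopsis take up iron by reducing ferric chelates with FRO2 and importing ferrous iron through IRT1, and they release coumarins that mobilize iron. Of 15 genes of root iron uptake, 6 fell, 2 rose and 7 did not pass, with a median of -0.16. FRO2 read 11.61, 12.04 and 12.19 without Cd and 8.72, 8.63 and 8.45 with it, a 10.2-fold fall (-3.35, SE 0.14, adjusted p = 1.12e-07). IRT1 read 12.95, 13.17 and 13.23 without Cd and 10.88, 10.82 and 10.72 with it (-2.31, SE 0.09, adjusted p = 6.9e-08), and the other IRT1 feature gave -2.16. CYP82C4, a cytochrome P450 that oxidizes coumarins, went from 9.15, 9.73 and 9.75 to 5.64, 5.90 and 5.52 (-3.86, SE 0.17, adjusted p = 1.71e-07). In each of these every Cd array lay below every control array, which the choice of the 15 largest falls required. Smaller falls were seen for IRT2 (-0.63), MYB10 (-0.59), a regulator of nicotianamine synthesis genes, and FRU (-0.29), the bHLH factor also called FIT that activates FRO2 and IRT1. A coumarin synthesis gene and an exporter gene rose: AT3G13610, the F6'H1 gene of scopoletin synthesis, rose from 12.40, 12.58 and 12.50 to 13.46, 13.42 and 13.38 (0.93, adjusted p = 2.04e-06), and the coumarin exporter gene ABCG37 rose by 0.42. AT3G12900 (0.06), BGLU42 (-0.16) and MYB72 (-0.19) did not pass. In the fit to all 27 arrays FRO2 and CYP82C4 passed, and the other genes named here did not.

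The bHLH factors that act as partners of FRU fell together. Of 10 regulators of iron status 6 fell, 2 rose and 2 did not pass, with a median of -0.35. bHLH100 read 11.33, 11.82 and 11.75 without Cd and 9.87, 10.04 and 10.06 with it (-1.65, SE 0.17, adjusted p = 5.1e-05). bHLH38 (-1.45), bHLH101 (-1.39) and bHLH39 (-1.20) moved likewise, and in all 4 the groups did not overlap. AT1G47395 (-0.38) and AT1G47400 (-0.32) were lower, both with a call lost without WT Cd 24 h replicate 3 (adjusted p = 0.0625 and 0.0503). AT2G30766 was higher (0.51), as was BTS (0.21), an E3 ligase gene of the iron response, which lost its call in 5 of the 6 fits that left out 1 array (adjusted p up to 0.0937). None of these 10 passed in the fit to all 27 arrays.

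Iron storage genes fell as well. Ferritins hold iron in plastids and mitochondria, and the VTL proteins resemble vacuolar iron transporters. All 7 genes of the list passed the threshold, 6 lower and 1 higher, with a median of -0.74, and 5 of the 6 falls also passed in the fit to all 27 arrays. FER1, a ferritin gene that rises with iron supply, read 14.23, 14.27 and 14.18 without Cd and 13.44, 13.50 and 13.42 with it (-0.78, SE 0.05, adjusted p = 2.6e-06). VTL2 read 9.04, 9.27 and 9.27 without Cd and 7.84, 7.86 and 7.58 with it (-1.44, SE 0.12, adjusted p = 1.19e-05). VTL1 (-0.94), FER4 (-0.74), VTL5 (-0.68) and FER3 (-0.35) fell with separate groups. FER2, the ferritin gene of seeds, was the 1 that rose (0.24, adjusted p = 0.0356), and its adjusted p was up to 0.125 when single arrays were left out. The part of the lower root markers in these iron values was not tested.

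Other metal genes changed less. Of the zinc deficiency genes 25% passed the threshold, of copper economy 33.3% and of metal transporters 44.4%, against 23.1% of all loci. Of 8 genes of zinc deficiency, ZIP9, a transporter of the ZIP family, rose from 8.95, 9.17 and 9.01 to 10.81, 10.56 and 10.61 (1.61, SE 0.10, adjusted p = 1.63e-06), ZIP1 fell (-0.64) and 6 did not pass, with a median of 0.05. Both ZIP9 and ZIP1 passed in the fit to all 27 arrays. ZIP4, whose values ran from 11.53 to 11.65 without Cd and from 11.43 to 11.50 with it, did not pass (adjusted p = 0.143). Of 18 metal transporters 5 rose and 3 fell. ABCC3, a vacuolar ABC transporter, rose from 12.81, 12.60 and 12.61 to 13.37, 13.43 and 13.40 (0.73, adjusted p = 2.78e-05), ABCC2, which moves phytochelatin complexes into the vacuole, rose by 0.27, NRAMP3, which releases metals from it, by 0.51, and PCR1 and PCR2 by 0.48 and 0.36. The plasma membrane pumps HMA2 and HMA4, which export zinc and Cd towards the xylem, fell by 0.47 and 0.25, and the vacuolar zinc transporter gene MTP3 fell by 0.44. Among 12 genes of copper economy, the superoxide dismutase genes CSD1 (0.31) and CSD2 (0.35) rose, and COPT6 (-0.44) and FRO4 (-0.29) fell.

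The 8 metallothioneins, small cysteine-rich proteins that bind metals, had 2 members higher and 2 lower, with a median of -0.01. MT1B read 10.87, 10.93 and 11.18 without Cd and 11.44, 11.64 and 11.61 with it (0.57, SE 0.11, adjusted p = 0.00358), and MT2A rose by 0.22, a call lost (adjusted p up to 0.111) without WT control replicate 2 or any of the Cd arrays. MT1C fell by 0.36, a call lost without WT Cd 24 h replicate 3 (adjusted p = 0.0513), and MT4B by 0.40. MT4B was dim, with a mean of 5.67 without Cd and 5.27 with it, and no detection values were given. MT1A (-0.08), MT2B (0.02), MT3 (-0.04) and MT4A (0.52, adjusted p = 0.0818) did not pass.

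**Figure D3:**
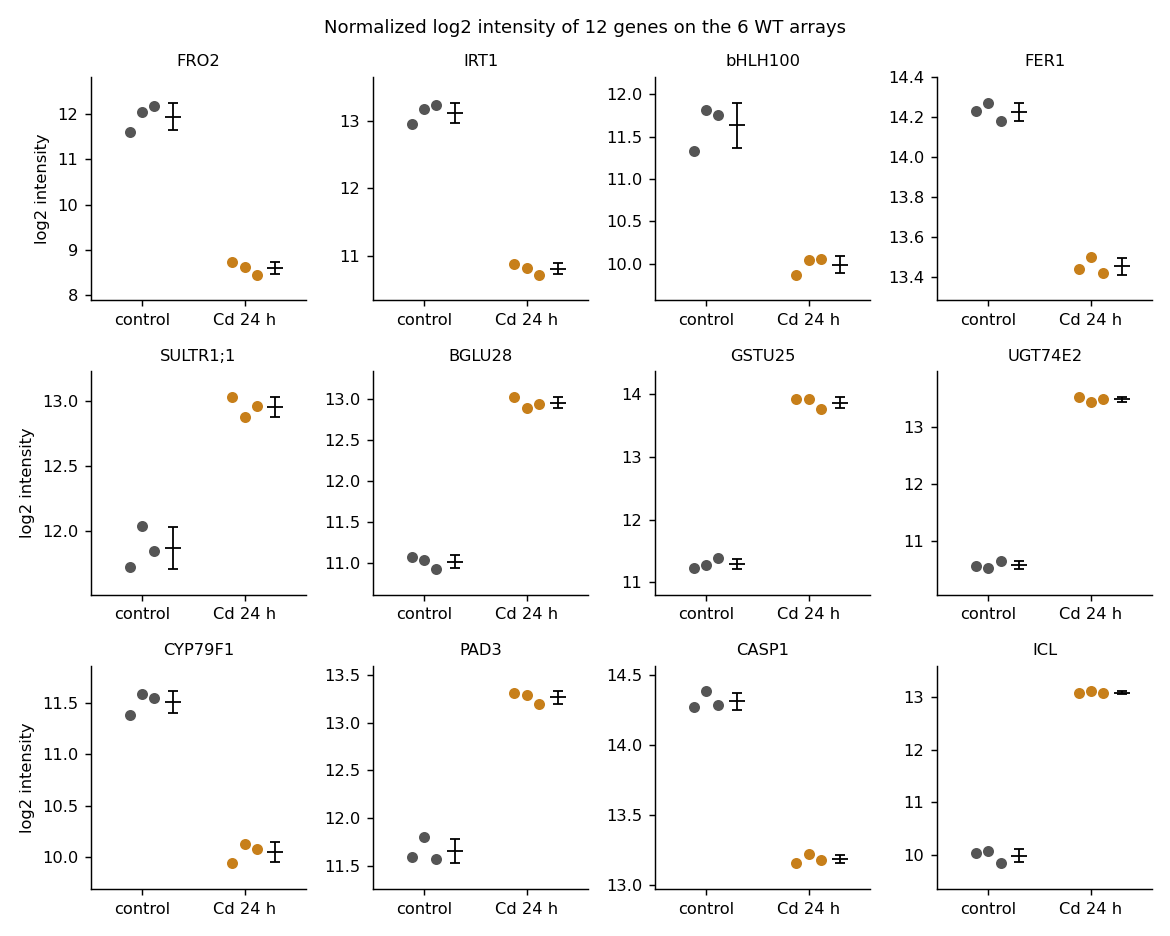
Normalized log2 intensity (y axis) of 12 genes on the 3 WT control and the 3 WT Cd 24 h arrays, each point 1 array and each bar the mean with its SD. The axes differ between genes and do not start at 0, and in every panel the 3 Cd arrays lie beyond the 3 control arrays. For FRO2, IRT1, UGT74E2 and ICL this was a condition of their choice among the largest changes.

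Some genes for sulfate uptake and most markers of sulfur shortage rose, while most genes of sulfate reduction did not pass the threshold. Of 22 genes of sulfate uptake and reduction 5 rose and none fell, with a median of 0.04. Among the 5, APR1 (0.20) lost its call in 5 of the 6 fits that left out 1 array (adjusted p up to 0.139). SULTR1;1, a high-affinity sulfate importer of roots, read 11.72, 12.04 and 11.85 without Cd and 13.03, 12.88 and 12.96 with it (1.09, SE 0.08, adjusted p = 7.31e-06). SULTR1;2, its partner in uptake, read 13.26, 13.30 and 13.31 without Cd and 14.26, 14.11 and 14.14 with it (0.88, SE 0.05, adjusted p = 1.19e-06), and it was the member that also passed in the fit to all 27 arrays. The APS reductase gene APR3, of the step that commits sulfate to reduction, rose by 0.34, and SERAT2;1, a serine acetyltransferase gene of cysteine synthesis, by 0.24. Of the 8 sulfur deficiency markers 7 rose, none fell and EIL3 (0.17, adjusted p = 0.0723), the regulator of the response, did not pass; the median was 0.58. BGLU28, a beta-glucosidase gene induced when sulfur is short, went from 11.08, 11.04 and 10.93 to 13.02, 12.89 and 12.94 (1.93, SE 0.06, adjusted p = 1.61e-08). GGCT2;1, whose product breaks down glutathione, rose by 1.0, LSU1 by 0.96, LSU2 by 0.76, SDI1 by 0.41 and SHM7 by 0.35. AT1G04770 rose by 0.19, a call lost in 5 of the 6 fits that left out 1 array (adjusted p up to 0.116). None of the 8 passed in the fit to all 27 arrays.

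Of the 6 genes that make or recycle glutathione and make phytochelatins 1 rose and none fell, with a median of 0.06. GSH1, which encodes the first enzyme of glutathione synthesis, was at 15.09 ± 0.08 (SD, n = 3 arrays) without Cd and at 15.07, 15.11 and 15.13 with it (0.02, SE 0.05, adjusted p = 0.868). The phytochelatin synthase genes PCS1 and PCS2 had changes of -0.15 (adjusted p = 0.116) and 0.10 (adjusted p = 0.449), GSH2 of 0.12 and the glutathione reductase gene GR2 of 0.01. GR1 was the member that passed (0.16, adjusted p = 0.0262), and its adjusted p was up to 0.0773 when single arrays were left out.

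Glutathione S-transferases, which join glutathione to electrophiles, rose in large part. Of 44 genes 25 rose, 9 fell and 10 did not pass, with a median of 0.33. When any single array was left out, 23 or 24 rose. GSTU25 read 11.22, 11.28 and 11.38 without Cd and 13.92, 13.92 and 13.77 with it, a 5.97-fold rise (2.58, SE 0.08, adjusted p = 1.61e-08). GSTU3 rose by 2.41, GSTU22 and GSTU11 by 1.82 each, GSTU4 by 1.81, GSTU24 by 1.51 and GSTU9 by 1.42, so the largest rises were all of the plant-specific tau class. GSTU25, GSTU22 and GSTU11 were among the 5 that also passed in the fit to all 27 arrays. GSTF11, a phi-class gene tied to aliphatic glucosinolate synthesis, had the largest fall, from 9.17 to 9.48 on the control arrays to between 8.31 and 8.39 on the Cd arrays (-0.95, adjusted p = 0.000257), with GSTU26 (-0.59) and GSTU20 (-0.56) next. Several tau-class genes lie in clusters of similar genes and may share probes. UGT74E2, a glucosyltransferase of the auxin indole-3-butyric acid, had the smallest adjusted p of all rises named here, with 10.56, 10.51 and 10.65 before and 13.53, 13.45 and 13.50 after Cd (2.92, SE 0.05, adjusted p = 2.88e-10). Among the 58 UGT genes, a family chosen after the values had been seen, 24 rose and 7 fell, with UGT73C1 at 1.72 and UGT73B4 at 1.26.

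Few of the listed genes for enzymes that remove reactive oxygen species passed the threshold. Of 16 antioxidant enzyme genes 2 rose and none fell (12.5%, against 23.1% of all loci), with a median of -0.02. The superoxide dismutase genes CSD1 (0.31) and CSD2 (0.35), which rose, were counted with copper economy, and GR1 (0.16) with glutathione. APX2, a heat- and light-induced ascorbate peroxidase gene, rose from 8.15, 7.82 and 7.79 to 8.89, 8.70 and 8.75 (0.86, SE 0.17, adjusted p = 0.00357), and DHAR2 rose by 0.35. The catalases CAT1 (0.15, adjusted p = 0.0683), CAT2 (-0.14, adjusted p = 0.0745) and CAT3 (-0.03, adjusted p = 0.756) did not pass. Among the 3 GOX genes measured, GOX1 (0.00) and GOX2 (-0.06) did not pass, and GOX3, the root form, rose from 12.60, 12.66 and 12.53 to 13.04, 12.99 and 12.96 (0.40, SE 0.05, adjusted p = 0.000385).

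Genes that respond to failing mitochondrial electron transport rose. Of the 10 members of this stress stimulon 9 rose and none fell, with a median of 1.24, and 3 of the rises also passed in the fit to all 27 arrays. NDB4, an external NAD(P)H dehydrogenase gene, read 6.92, 7.12 and 6.80 without Cd and 9.60, 9.57 and 9.36 with it (2.56, SE 0.14, adjusted p = 6.92e-07). The alternative oxidase genes AOX1D and AOX1A read 6.85 to 7.56 and 11.90 to 12.08 without Cd and 9.52 to 9.78 and 13.25 to 13.38 with it, rises of 2.42 (adjusted p = 1.12e-05) and 1.34 (adjusted p = 5.63e-07). AT2G21640 rose by 1.74, AT5G09570 by 1.14, OM66 by 0.81 and NDA2 by 0.55. UGT74E2 is also a member. NAC13, a transcription factor of this response, rose by 1.05, and NAC017, a membrane-bound factor that acts before it, had a change of 0.03 (adjusted p = 0.724).

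The glyoxylate cycle enzymes ICL and MLS, which turn the carbon of stored fat into precursors of sugar in germinating seeds, both rose. ICL, the isocitrate lyase gene, read 10.03, 10.07 and 9.84 without Cd and 13.07, 13.11 and 13.08 with it (3.11, SE 0.11, adjusted p = 4.28e-08). MLS, the malate synthase gene, read 8.90, 9.30 and 9.07 without Cd and 10.09, 10.11 and 10.42 with it (1.12, SE 0.13, adjusted p = 0.000126). In a list of 15 genes of this cycle and of peroxisomal beta-oxidation, which was chosen after the values had been seen, 5 rose and none fell; the other rises were 0.25 or less, and CSY2 (0.05) and PMDH1 (0.02) did not pass. Of 4 genes of darkness and sugar shortage, DIN2 and DIN1 (0.24) rose and ASN1 (0.06) and DIN10 (-0.15) did not pass, and DIN1 lost its call in 4 of the 6 fits that left out 1 array, with adjusted p up to 0.119.

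Of 31 heat shock genes 14 rose and 2 fell, with a median of 0.19. HSP23.6-MITO, a mitochondrial small heat shock protein gene, read 9.51, 9.53 and 9.35 without Cd and 10.85, 10.80 and 10.75 with it (1.33, SE 0.10, adjusted p = 5.76e-06). The chloroplast form HSP21 rose by 0.89 and HSP70b by 0.76. The factor genes HSFA7A (-0.56) and HSFA2 (-0.29) were the 2 that fell, the latter with a call lost without WT Cd 24 h replicate 2 (adjusted p = 0.0552), and the chaperone genes HSP101 (-0.08) and HSP90.1 (0.02) did not pass. Of 17 genes of the unfolded protein response of the endoplasmic reticulum 3 rose, namely the chaperone gene BIP3 (0.93), the factor gene NAC103 (0.65) and bZIP60 (0.33), a main transcription factor of this response, and CRT1B fell (-0.18).

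Genes for the synthesis of aliphatic glucosinolates, sulfur-rich defence compounds made from methionine, were lower almost throughout. Of 17 genes 14 fell, none rose and 3 did not pass, with a median of -0.74. CYP79F1, which begins core synthesis, read 11.39, 11.59 and 11.55 without Cd and 9.94, 10.13 and 10.08 with it (-1.46, SE 0.10, adjusted p = 2.9e-06), and CYP79F2, of the same step, fell by 1.07. MYB29, a transcription factor of the pathway, read 10.78, 10.81 and 10.69 without Cd and 9.43, 9.42 and 9.51 with it (-1.31, SE 0.06, adjusted p = 2.55e-07), MYB76 fell by 1.05, and MYB28, the main regulator, was not past the threshold (0.10, adjusted p = 0.158). Genes of side chain elongation and its carrier fell too, with BCAT4 (-1.03), IPMI1 (-1.01), the carrier gene BAT5 (-0.97), IMD1 (-0.77), MAM1 (-0.57) and MAM3 (-0.52). CYP79F2 was the 1 member that also passed in the fit to all 27 arrays.

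The tryptophan branch was split. Of 13 genes of indole glucosinolates and camalexin, the antimicrobial indole of Arabidopsis, 6 rose and 2 fell, with a median of 0.01. PAD3, which completes camalexin, read 11.59, 11.80 and 11.57 without Cd and 13.31, 13.29 and 13.19 with it (1.61, SE 0.09, adjusted p = 6.07e-07). CYP71A12 and CYP71A13, which act before it, rose by 2.94 and 2.3, and since these genes are close copies their signals may be shared. CYP79B3, which feeds both products, fell from 13.82, 13.73 and 13.66 to 13.17, 13.20 and 13.15 (-0.56, adjusted p = 4.7e-05), and CYP79B2 did not pass (-0.20, adjusted p = 0.199).

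Defence genes of salicylate and pipecolate rose in part. Of 16 genes 7 rose and 3 fell, with a median of 0.16, and 4 of the rises also passed in the fit to all 27 arrays. FMO1, which makes N-hydroxypipecolic acid, read 9.06, 9.10 and 9.18 without Cd and 11.79, 11.56 and 11.61 with it (2.54, SE 0.09, adjusted p = 2.94e-08). PBS3, of salicylate synthesis, rose by 1.93, the glucanase gene PR2 by 1.3, ALD1 by 1.21 and PR5 by 0.54. ICS1, the first enzyme of salicylate synthesis, and PR1 did not pass, both with a change of 0.16. The transporter gene EDS5 fell by 0.33, and of the 3 falls 1 or 2 were left when any single array was left out.

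Of 17 ethylene genes 9 rose and 1 fell, with a median of 0.18, and 7 or 8 rose when any single array was left out. ACS2, which encodes an ACC synthase, the enzyme that makes the ethylene precursor, read 8.6, 8.74 and 8.55 without Cd and 10.75, 10.77 and 10.62 with it (2.08, SE 0.09, adjusted p = 1.93e-07). ACS7 rose by 1.37 and ACS6 by 0.54, as did the response factors ERF1 (0.95) and ERF2 (0.58), and ACS2, ACS7, ERF1 and ERF2 also passed in the fit to all 27 arrays. Of 30 jasmonate genes 8 rose and 1 fell, with a median of 0.08, and 4, 5 and 5 rose without WT Cd 24 h replicate 1, WT control replicate 1 and WT Cd 24 h replicate 3. CYP94B3, which inactivates the active hormone, rose by 0.82, the repressor genes JAZ10 and JAZ1 by 0.62 and 0.48, and AOC3, of synthesis, by 0.55. Of 21 genes of the abscisic acid response 4 rose and 6 fell, and 4 or 5 fell when any single array was left out. The phosphatase genes HAI1 (0.80) and HAI2 (0.65) were higher. RD29A (-0.54) and CYP707A3 (-0.62), which breaks the hormone down, were lower. No jasmonate or abscisic acid gene of these lists passed in the fit to all 27 arrays. Of 15 genes of rapid stress signalling 6 rose and 1 fell, MPK3 (-0.16), whose call was lost in 4 of the 6 fits that left out 1 array (adjusted p up to 0.125). The rises were led by the kinase gene OXI1 (1.25, adjusted p = 1.93e-07), WRKY53 (1.04) and the zinc finger genes ZAT10 (0.82) and ZAT12 (0.72).

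In transcription factor families that were chosen after the values had been seen, 26 of 81 NAC genes rose and 4 fell, and 19 of 67 WRKY genes rose and 10 fell. NAC044, known from the response to DNA damage, read 9.87, 10.05 and 10.03 without Cd and 12.52, 12.58 and 12.54 with it (2.57, SE 0.06, adjusted p = 6.35e-09). In the list of 11 DNA damage genes 3 rose and 1 fell and none changed by more than 0.31, and 1 rose without WT control replicate 1 or WT Cd 24 h replicate 3. WRKY71 (1.52), WRKY51 (1.47) and WRKY24 (-1.31) were the largest changes among the WRKY genes that also passed in the fit to all 27 arrays.

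The Casparian strip, a lignin band that seals the root endodermis, is built by CASP proteins, the peroxidase PER64 and the dirigent protein ESB1. In a list of 9 of its genes, chosen after the values had been seen, 8 fell and MYB36, the regulator that switches them on, did not pass (0.22, adjusted p = 0.0668), with a median of -1.12. CASP5 read 10.30, 10.11 and 10.28 without Cd and 6.25, 6.64 and 6.24 with it, a 14.4-fold fall (-3.85, SE 0.13, adjusted p = 2.94e-08). CASP1 fell to 13.16, 13.22 and 13.18 (-1.12, SE 0.05, adjusted p = 1.93e-07), CASP2 by 2.07, CASP4 by 1.07, PER64 by 1.75 and ESB1 by 0.71. The receptor kinase gene GSO1, whose product watches over the barrier, fell by 0.76. In the fit to all 27 arrays GSO1 passed and the other 7 falls did not. CASP1, ESB1 and MYB36 are also root markers, and the share of roots in each pool was not measured.

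Suberin is the other barrier of the endodermis. Of 17 suberin genes 4 rose and 7 fell, with a median of -0.14, and 4 fell without WT control replicate 2, WT control replicate 3 or WT Cd 24 h replicate 3. MYB39, a factor that promotes suberin, read 8.02, 7.95 and 8.18 without Cd and 9.91 or more on each Cd array (2.0, SE 0.10, adjusted p = 3.81e-07). MYB41 rose by 1.11, MYB93 by 0.71 and the fatty acyl reductase gene FAR1 by 0.66. CYP86A1, the fatty acid hydroxylase of suberin monomers, fell from between 11.83 and 12.19 to between 10.86 and 11.08 (-1.05, adjusted p = 4.47e-05), and MYB92 fell by 0.46. The laccase genes LAC4 (-1.08) and LAC17 (-0.86), which polymerize lignin, were the largest falls among 17 phenylpropanoid and lignin genes, of which 2 rose and 4 fell.

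Water channel genes also fell. TIP2;3, a tonoplast aquaporin, read 12.32, 12.39 and 12.20 without Cd and 9.11, 9.21 and 9.65 with it (-2.98, SE 0.15, adjusted p = 4.42e-07). TIP2;2 fell by 1.78, PIP2;4 by 1.47 and PIP1;1 by 0.62. In the list of 23 aquaporins, chosen after the values had been seen, 10 fell and 2 rose, with a median of -0.20. The signalling peptide gene CLE5 read 8.71, 8.80 and 8.73 without Cd and 6.06, 6.10 and 5.98 with it (-2.70, SE 0.08, adjusted p = 2.21e-08), and CLE2 (-2.02), CLE6 (-1.76), CLE4 (-1.25) and CLE1 (-1.01) fell as well. Of 30 CLE genes, a family also chosen after the values had been seen, 9 fell and 6 rose. The median was -0.01 and no change was above 0.82. With Cd, CLE6, CLE4 and CLE1 averaged 5.49, 5.16 and 5.66, and no detection values were given to judge such dim levels. Among 18 expansin and xyloglucan genes 7 rose and 6 fell. The largest changes were falls, of XTH31 (-1.63) and the expansin gene EXPA5 (-0.87), and 4 members rose without WT Cd 24 h replicate 2 or WT Cd 24 h replicate 3.

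Genes of cell division fell by small amounts. Of 15 mitotic genes 11 fell, none rose and 4 did not pass, with a median of -0.27 and all 15 changes below 0. Between 8 and 10 of them fell when any single array was left out. CDKB1;1, a plant-specific mitotic kinase gene, read 10.73, 10.70 and 10.70 without Cd and 10.34, 10.32 and 10.10 with it (-0.45, SE 0.08, adjusted p = 0.00267). KNOLLE, a syntaxin gene of the cell plate, fell by 0.25. The type-A response regulators, which cytokinin induces and which dampen its signal, were lower in 8 of 10 genes, a list chosen after the values had been seen, led by ARR6 (-0.93, adjusted p = 3.36e-05) and ARR5 (-0.63). No member of either list passed in the fit to all 27 arrays.

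Phosphate starvation genes were lower and a nitrate transporter gene higher. Of 11 phosphate genes 7 fell and none rose, with a median of -0.33. MGD3, of galactolipid synthesis under phosphate shortage, read 12.62, 12.32 and 12.53 without Cd and 11.43, 11.08 and 11.51 with it (-1.15, SE 0.11, adjusted p = 3.29e-05), and the phosphate sensor gene SPX3 fell by 0.87. None of the 7 falls passed in the fit to all 27 arrays. Of 8 nitrate genes 2 rose. NRT1.8, which takes nitrate out of the xylem sap, read 12.48, 12.47 and 12.51 without Cd and 13.63, 13.72 and 13.61 with it (1.17, SE 0.06, adjusted p = 6.04e-07), and it passed in the fit to all 27 arrays. The importer gene NRT2.1 rose by 0.65, a call lost without WT Cd 24 h replicate 1 (adjusted p = 0.0614).

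The shares of light harvesting and RuBisCO genes and of photorespiration genes that passed the threshold were below the 23.1% of all loci. The share of chlorophyll synthesis genes was above it. For light harvesting and RuBisCO the share that fell was near the 12.6% of all loci that were lower. Whether these shares differ from those of all loci was not tested. Of 22 genes of light harvesting and RuBisCO 3 fell and none rose, with a median of -0.08, and the mean of these genes lay between 14.57 and 14.62 without Cd and between 14.45 and 14.49 with it. LHCB2.3, an antenna protein gene, read 14.29, 14.25 and 14.23 without Cd and 13.64, 13.73 and 13.72 with it (-0.56, SE 0.06, adjusted p = 4.79e-05). Of 7 chlorophyll synthesis genes 4 fell, among them PORC (-0.32) and CAO (-0.28). Of 22 photorespiration genes 3 fell and GOX3 rose; the falls were PGLP1 (-0.27), LrgB (-0.25), the plastid glycolate and glycerate transporter gene, and HPR1 (-0.20), whose call was lost in 5 of the 6 fits that left out 1 array, with adjusted p up to 0.0975. Flavonoid genes were divided, with 6 of 17 lower, among them FLS1 (-0.97) and TT7 (-0.86), the flavonoid 3'-hydroxylase gene, and 4 higher, all of them regulators: TT8 (1.03), PAP2 (0.54), PAP1 (0.49) and MYB111 (0.31). The call of MYB111 was lost in each of the 6 fits that left out 1 array (adjusted p up to 0.127).

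Of 17 circadian clock genes 5 rose and 1 fell, with a median of 0.11. PRR9, a morning gene, read 9.93, 9.87 and 9.87 without Cd and 10.86, 10.70 and 10.84 with it (0.91, SE 0.07, adjusted p = 7.07e-06), and the evening gene GI rose by 0.51, while TOC1 (0.02) and LHY (0.11) did not pass. None of the 17 passed in the fit to all 27 arrays. The hour of harvest was not given for either group, so time of day and Cd cannot be told apart for these genes.

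Transcripts of both organelle genomes were higher on the Cd arrays. These groups were chosen after the values had been seen. Of 107 mitochondrial loci 98 rose (91.6%) and none fell, with a median of 0.90, and of 87 chloroplast loci 56 rose (64.4%) and none fell, with a median of 0.66, against 10.1% of nuclear loci higher. The mean over the mitochondrial loci was 10.34 or less on each control array and 11.03, 11.05 and 11.32 on the Cd arrays. Over the chloroplast loci it was 13.49 or less on each control array and 14.05, 14.13 and 14.05 on the Cd arrays. All control arrays were thus below all Cd arrays for both genomes, and the nuclear mean stayed between 9.42 and 9.43 on all 6 arrays. The median SD of an organelle locus between control arrays was 0.20 in either genome, against 0.10 for nuclear loci, and 6 chloroplast loci had an SD over 1. Without quantile normalization the medians were 0.90 and 0.68. In the fit to all 27 arrays 20 mitochondrial and 4 chloroplast loci passed. How the RNA was primed for labelling was not given in the sources used here, and its part in these values was not tested.

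**Figure D4:**
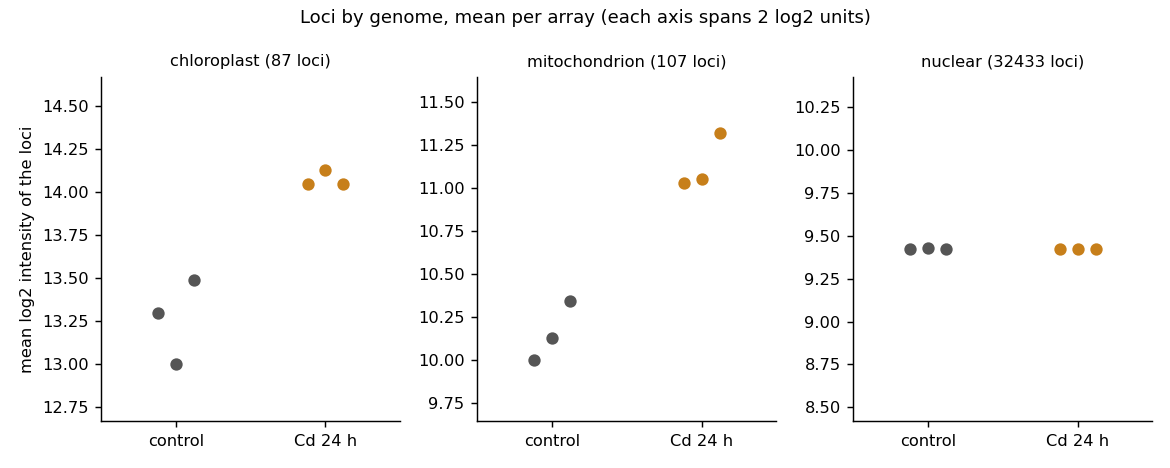
Mean log2 intensity (y axis) of the chloroplast, mitochondrial and nuclear loci on each of the 6 arrays, each point 1 array, with every axis spanning 2 log2 units. Chloroplast means rise from at most 13.49 to at least 14.05 and mitochondrial means from at most 10.34 to at least 11.03, while nuclear means stay at 9.42 to 9.43.

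The 30 genes with the largest rises and falls were followed across all 27 arrays, as a description, by counting on each array how many lay on the Cd 24 h side of the midpoint between the WT control and WT Cd 24 h means. The count was 30 on each WT Cd 24 h array and 0 or 1 on the WT control arrays, as the choice of genes fixes. It was 1, 1 and 2 on the arrays labelled WT Cd 30 min. It was 30, 27 and 29 on those labelled gox2 Cd 30 min. FRO2 was between 8.36 and 8.61 on those arrays, beside 8.45 to 8.72 on the WT Cd 24 h arrays, and ICL was at 12.70 or more, beside 13.07 to 13.11. The count takes the side of the midpoint alone, and CASP5 was between 8.14 and 8.26 on those arrays. In WT it was between 6.24 and 6.64 after 24 h of Cd and between 10.11 and 10.30 in the control. The second replicate of gox2 Cd 24 h, of 35S::GOX2 Cd 30 min and of 35S::GOX2 Cd 24 h also had all 30 genes on that side, whereas the other replicates of these labels had between 0 and 9. The 3 arrays labelled atgox control had 7 or 8, and those labelled 35S::GOX2 control 1 or 2, both labels that the GOX2 level goes against. The pattern of the 24 h arrays therefore appeared under 5 labels, 2 of which state 30 min of Cd. FER1 followed it in part. It was between 13.62 and 13.68 on the arrays labelled gox2 Cd 30 min, below the 14.18 to 14.27 of the WT control, but between 14.15 and 14.23 on the arrays labelled 35S::GOX2 Cd 30 min and between 14.20 and 14.64 on those labelled 35S::GOX2 Cd 24 h, above its 13.42 to 13.50 in WT after 24 h.

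**Figure D5:**
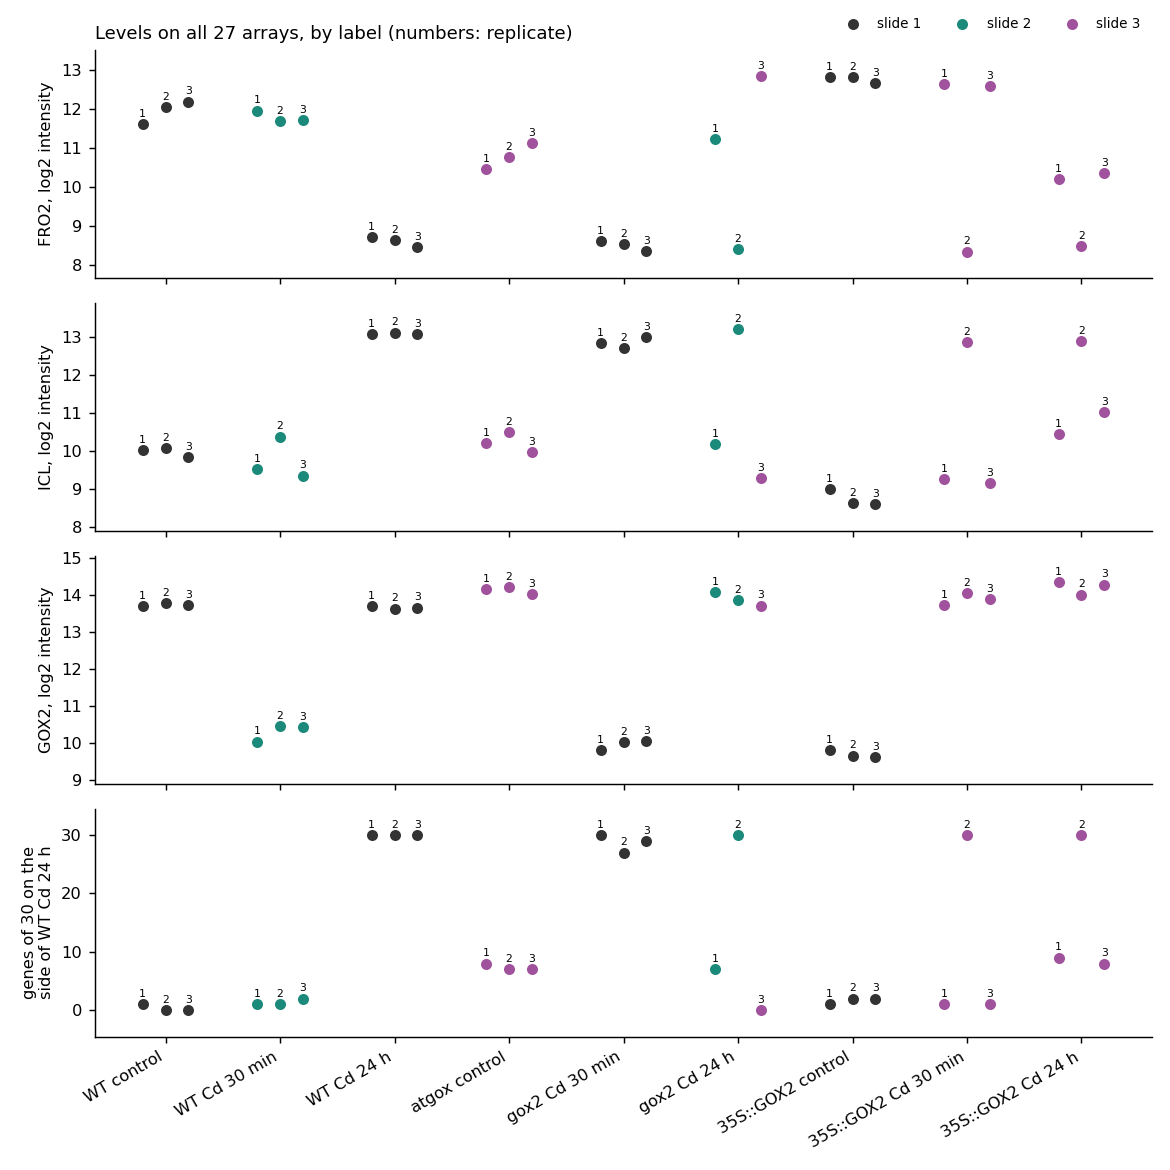
Log2 intensity of FRO2, ICL and GOX2 (upper 3 panels, y axis) and the number of the 30 most changed genes on the Cd 24 h side (lowest panel, y axis) on all 27 arrays, grouped by label on the x axis, with the replicate number above each point and the slide as its colour. The WT Cd 24 h arrays and those labelled gox2 Cd 30 min stand together at 27 to 30 genes, and GOX2 is at 10.45 or less under 3 labels.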

How the data were processed

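NimbleGen arrays of total RNA with 1 dye, Cy3, were used. Per the file headers and values, the authors deposited RMA intensities on the linear scale, made from 1 to 4 probe pairs a feature. The submitters' notes name limma without a version; genome build and aligner are not given in the sources used here. No background or detection values came with the arrays. The table of the whole series held the same values for all 37118 features.

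Here the deposited values were put on the log2 scale and quantile-normalized across the 27 arrays. limma 3.58.1 in R 4.3.3 was fitted to the 12 arrays of the slide that held both WT groups, with 4 group means and 8 residual degrees of freedom. WT Cd 24 h was compared with WT control by the two-sided moderated test, adjusted by Benjamini-Hochberg over 37118 features, with no filter; the remaining groups of the slide entered only through the spread. Where a locus had several features, the brightest on average was used. RefSeq gave symbols for 31993 of 32627 loci. The calls were tested on simulated data.

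The members, gene lists and naming rule were chosen with earlier results of these data known. The rule took, among features past the threshold with separate groups, the 15 largest rises and the 15 largest falls, then up to 5 members of each list, all members of lists of up to 8, and all metallothioneins, catalases and GOX genes; other genes were named after their values were seen. Alternatives were the deposited values without further normalization, normalization within the slide, the series table, all 27 arrays, the 6 arrays alone, a filter on the dimmest 25% of features, locus means, a replicate block, a log2 fold change of at least 1, an intensity trend, the methods' t-test and leaving out each array in turn.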

Additional observations from a re-analysis of the deposited data

How the results depend on the processing

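From 8433 features past the threshold (3808 higher, 4625 lower), the count was 1194 (556 and 638) with all 27 arrays in 9 groups, 924 (556 and 368) with a log2 fold change of at least 1, and 5183 (2395 and 2788) by the methods' t-test on the 6 arrays after Benjamini-Hochberg, against 11253 without adjustment. Leaving out each array in turn gave 6662 to 7479 (3061 to 3373 higher, 3594 to 4106 lower), and with a replicate block 8821 passed (4054 higher, 4767 lower). Same-numbered replicates did not deviate together (correlations 0.02, -0.10 and 0.08). With 3 arrays a group this cannot exclude that the samples were paired. All other alternatives, including the fit without organelle features, which was added after seeing the data, stayed within 1.5 times. Of 266 named genes past the threshold none changed direction, 231 kept their call under every alternative other than the fit to all 27 arrays, the fold limit and the t-test, and 71 kept it in the fit to all 27 arrays. The cause of the lower count there was not tested. Of 59 named genes not past the threshold 20 changed sign under some alternative. Without quantile normalization NRT1.1 was at 0.01 and CAT3 at 0.00, without organelle features NIA2 was at 0.01 and CAT3 at 0.00, and with the mean over a locus ASN1 was at -0.04 and MYB28 at 0.00. With 1 array left out the log2 fold changes ranged as follows, GSH1 -0.03 to 0.05, GR2 -0.03 to 0.05, MT2B -0.04 to 0.10, MT3 -0.12 to 0.07, ZIP3 -0.05 to 0.15, ZIP12 -0.32 to 0.03, GUN4 -0.07 to 0.01 and NIR1 -0.07 to 0.02. The others were NRT1.1 -0.04 to 0.00, ASN1 0.00 to 0.11, CRU2 -0.02 to 0.26, SESA1 -0.11 to 0.14, CAT3 -0.06 to 0.00, GOX1 -0.02 to 0.02, HSP90.1 -0.06 to 0.07, TOC1 -0.01 to 0.06, LRX1 -0.09 to 0.08 and AT3G12900 -0.14 to 0.21. The files give no signal over background, so how far dim features can be trusted is unknown.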
